A study of Homo sapiens with 2 samples.

Results

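HLX and 8 further homeobox genes of the NKL subclass, namely HHEX, MSX1, MSX2, NKX2-2, NKX2-5, DLX1, DLX4 and VENTX, were examined in the anaplastic large cell lymphoma (ALCL) cell line SU-DHL-1. These 9 genes were chosen as NKL genes with a role in lymphoid cells or in the study, from a list of 48 NKL genes, and the array held probe sets of 19775 genes in all. A probe set was assigned to a gene where the annotation of the HG-U133 Plus 2.0 array paired it with that symbol alone, which gave 15 probe sets for the 9 genes. SU-DHL-1 is an established T-lineage lymphoma line that carries the fusion gene NPM1-ALK. The siHLX sample was SU-DHL-1 cells electroporated with an siRNA against HLX and the siCTR sample was SU-DHL-1 cells electroporated with a negative control siRNA, both harvested after about a day of culture. Each treatment was measured on 1 array, so the differences below have no replicate error and no test was possible. The arrays were made to search for genes downstream of HLX.

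NKL homeobox genes encode transcription factors whose homeodomain binds short DNA motifs built around a TAAT core. In normal blood cell development, a few of these genes are switched on in a stage- and lineage-dependent manner, and most are silent in mature T-cells. Deregulated NKL genes are well known from T-cell leukemia, where TLX1, TLX3 and NKX2-1 act as oncogenes.

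The array signal is a log2 intensity, so a difference of 1 is a doubling, and it was written here as siHLX minus siCTR. Probe sets differ in brightness for the same amount of RNA, so each difference was taken between the arrays for 1 probe set. Shares of dimmer probe sets, the level threshold and likeness of values describe brightness only. They do not compare amounts of RNA between genes. A probe set was counted as at or above the level threshold where its mean over both arrays reached 4.865, the median of all 54613 probe sets that are not controls. In bulk RNA a lower value can come from fewer cells with the transcript or from less RNA per cell, and the arrays cannot tell these apart.

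The upstream sequences of HLX, MSX1 and NKX2-2 are shown because HLX was the target of the siRNA and the other 2 genes were the NKL genes the study followed together with it in SU-DHL-1. Each run holds the 250 bases before the RefSeq start site in GRCh38.p14, read 5′ to 3′ on the strand of the gene, and capitals mark the homeodomain core TAAT, which reads ATTA on the opposite strand. The HLX run is chr1:220879193-220879442 (plus strand), the MSX1 run chr4:4859415-4859664 (plus strand) and the NKX2-2 run chr20:21522690-21522939 (minus strand, the first of 2 annotated start sites).
HLX: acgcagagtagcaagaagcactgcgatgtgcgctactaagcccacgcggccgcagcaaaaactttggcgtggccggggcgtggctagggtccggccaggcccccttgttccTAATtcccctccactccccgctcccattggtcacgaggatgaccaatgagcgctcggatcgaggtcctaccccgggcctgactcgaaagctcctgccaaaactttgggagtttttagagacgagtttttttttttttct
MSX1: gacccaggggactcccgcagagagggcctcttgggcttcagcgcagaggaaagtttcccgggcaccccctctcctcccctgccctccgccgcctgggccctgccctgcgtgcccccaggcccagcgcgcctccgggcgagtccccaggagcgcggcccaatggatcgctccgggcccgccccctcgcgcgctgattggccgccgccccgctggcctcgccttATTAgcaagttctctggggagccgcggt
NKX2-2: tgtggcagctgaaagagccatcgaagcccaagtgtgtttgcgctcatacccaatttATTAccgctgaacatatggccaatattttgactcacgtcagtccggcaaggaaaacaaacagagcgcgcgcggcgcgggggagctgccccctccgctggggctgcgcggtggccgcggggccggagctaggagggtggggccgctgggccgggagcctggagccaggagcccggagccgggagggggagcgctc

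RefSeq upstream sequences were matched for 7 of the 9 genes, not for NKX2-5 and DLX4. The TAAT core, searched on both strands, occurred once before HLX at -139 and once before MSX1 at -28, counted from the start site to the first base of the match. It occurred once before the first NKX2-2 start at -194, once before DLX1 at -93, 3 times before VENTX and 5 times before MSX2, where 1 pair of matches overlapped. It was not in the HHEX window or before the second NKX2-2 start. Of 35116 upstream sequences of the same length, 47.4% held this core. The NK2-type motif CAAGTG, which homeodomains of the NKX2 family recognise, was found once, before NKX2-2 at -222, and 9.5% of all windows held it. The motif TTCNNNGAA, the palindrome bound by STAT proteins, was in none of the 8 windows of the 7 genes and in 6.57% of all windows. CCAAT boxes lay before HLX at -114 and -97 and before MSX1 at -94 and -57. MSX2, the first NKX2-2 start and DLX1 also had 2 each, and HHEX had 1. VENTX and the second NKX2-2 start had none, and 32% of all windows held one. No motif other than these 4 was searched, and a match describes letters only. G and C made up 57.2% of the HLX window, 74% of the MSX1 window and 81.2% of the HHEX window, against a median of 58% over all windows.

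**Figure D1:**
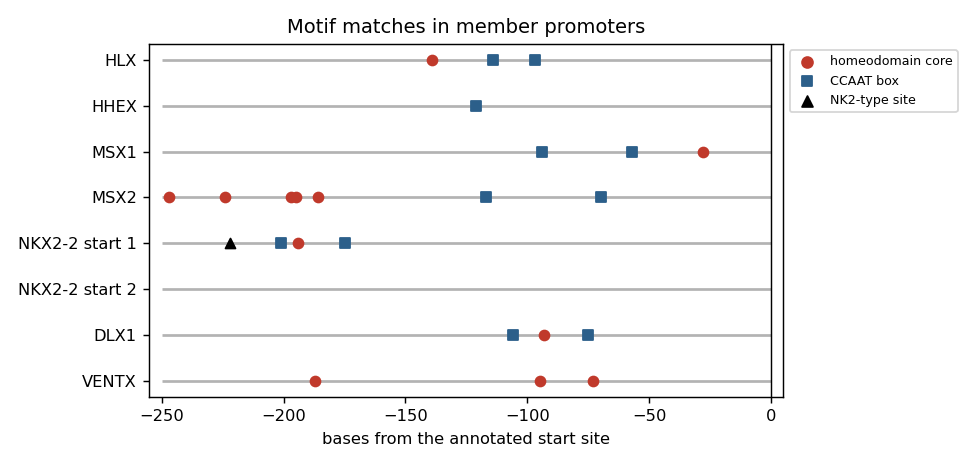
Matches to 3 motifs in the 250 bases before each RefSeq start site, as bases from the start site on the x axis, with 1 line per start site. Of the 8 windows, 6 held the homeodomain core, MSX2 with 5 matches the most, and the NK2-type site lay before the first NKX2-2 start alone.

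HLX, the target of the siRNA and a regulator of T helper and innate lymphoid development, was read by 1 probe set (214438_at). Its log2 signal was 7.70 on the siHLX array and 8.15 on the siCTR array. HLX was therefore lower after siHLX treatment, with a log2 difference of -0.45 and a ratio of 0.732, which stayed inside the 1.5-fold limit of 0.585. Both values lay well above the level threshold, and 82% of all non-control probe sets were dimmer. To set the size of this difference among probe sets of like brightness, the named probe sets within 0.5 of its mean level were taken. Of these 3693 probe sets, 59 (1.6%) were as far lower as HLX or farther, and their differences had an SD of 0.21. The direction fits the label of the siHLX sample. The 3 genes whose pair of values lay closest to that of HLX over the 2 arrays were FUBP1, MTMR14 and SLC38A9. FUBP1 and MTMR14 each read 7.71 after siHLX and 8.16 after siCTR, a distance of 0.0141, and SLC38A9 read 7.67 after siHLX and 8.14 after siCTR, a distance of 0.0316. With 2 arrays such likeness means only that these probe sets had similar brightness and a similar difference.

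MSX1, an NKL gene normally active in NK-cells and early lymphoid progenitors, was read by 2 probe sets that differed in direction. The brighter one (205932_s_at) read 7.71 after siHLX and 7.61 after siCTR, a difference of 0.10. The dimmer one (228473_at) read 5.0 after siHLX and 5.82 after siCTR, a difference of -0.82 and a ratio of 0.566. This was the only one of the 15 member probe sets beyond 1.5-fold, and it was also the member with the lowest difference. Among 5418 named probe sets of like brightness, 164 (3.03%) were as far lower. The differences of the MSX1 probe sets lay 0.92 apart, and 6.52% of all genes with 2 probe sets spread as widely. The arrays thus gave no single direction for MSX1, because its brighter probe set was nearly level and its dimmer probe set was lower.

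NKX2-2, which is best known as a neural and pancreatic developmental regulator, was read by a bright probe set. The probe set (206915_at) read 8.99 after siHLX and 9.22 after siCTR, with 90.1% of all non-control probe sets dimmer. The difference was -0.23, a ratio of 0.853. At this brightness probe sets varied little between the arrays, with an SD of 0.16. Of 2952 named probe sets of like brightness, 255 (8.64%) were as far lower.

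NKX2-5, a cardiac and splenic developmental gene that is ectopically activated in a subset of T-cell leukemia, went the other way. Its probe set (206578_at) read 5.99 after siHLX and 5.65 after siCTR, a difference of 0.34 and a ratio of 1.27. Among probe sets of like brightness, 18% were as far higher. The difference was smaller than the SD of 0.38 at that brightness.

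HHEX is an NKL gene of hematopoietic stem cells and B-cells. Its brighter probe set (215933_s_at) read 6.92 after siHLX and 6.79 after siCTR, a difference of 0.13. Its second probe set (204689_at) read 6.14 after siHLX and 6.37 after siCTR, a difference of -0.23. Both were above the level threshold on both arrays, with 73% and 67.5% of non-control probe sets dimmer. Both differences were below the SD at like brightness, 0.27 for the brighter and 0.32 for the dimmer probe set, and their mean was -0.05.

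**Figure D2:**
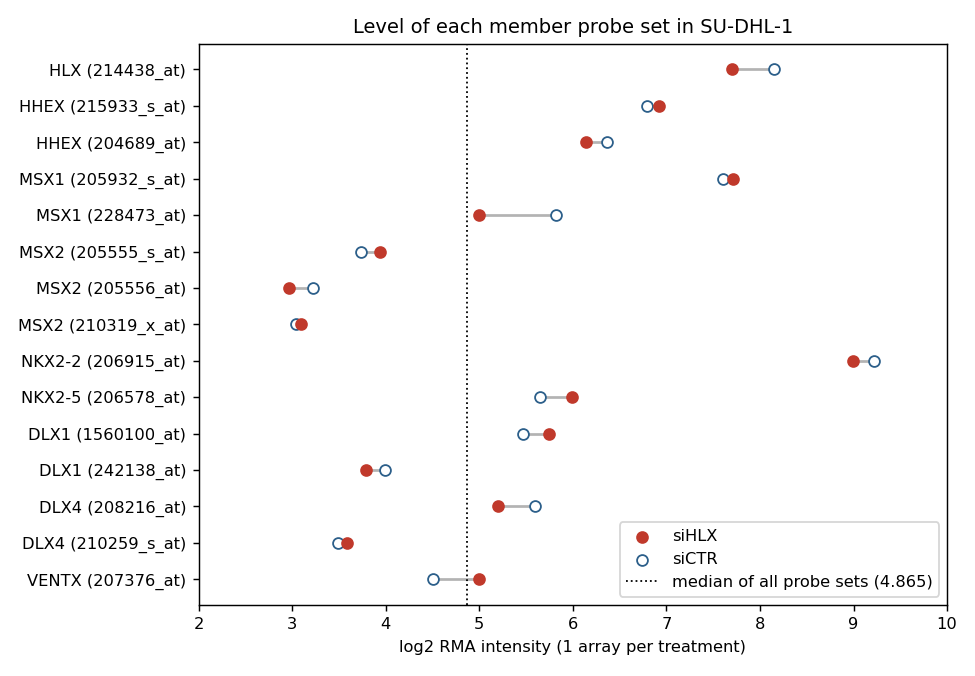
Log2 RMA intensity on the x axis for each of the 15 member probe sets, with filled circles for siHLX, open circles for siCTR and a dotted line at the level threshold of 4.865. HLX sits at 7.70 (siHLX) and 8.15 (siCTR), the dimmer MSX1 probe set has the widest gap, and the 3 MSX2 probe sets lie below the threshold on both arrays.

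DLX1 and DLX4 belong to the distal-less family, which patterns forebrain and limb. The DLX1 probe set above the threshold (1560100_at) read 5.74 after siHLX and 5.47 after siCTR, a difference of 0.27. The other (242138_at) was below the threshold at 3.79 after siHLX and 3.99 after siCTR, a difference of -0.20. DLX1 therefore had both signs. DLX4 is the distal-less member best known from placenta and blood cells. Its brighter probe set (208216_at) read 5.2 after siHLX and 5.60 after siCTR, a difference of -0.40 that was below the SD of 0.44 at like brightness. Its dimmer one (210259_s_at) read 3.59 after siHLX and 3.49 after siCTR, a difference of 0.10. Their genomic partners were both dim. DLX2, paired with DLX1, read 4.25 and 3.69 on its 2 probe sets after siHLX, against 4.35 and 4.05 after siCTR. DLX3, paired with DLX4, read 3.64 after siHLX and 3.89 after siCTR. All 3 of these partner probe sets were below the threshold and lower after siHLX, with differences of -0.10, -0.36 and -0.25. Each was smaller than the SD at like brightness, which was 0.48, 0.43 and 0.41. NKX2-4, the neighbor of NKX2-2, had no probe set of its own.

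VENTX, a homeobox gene of myeloid cells, was read by 1 probe set (207376_at) at 5.0 after siHLX and 4.50 after siCTR. Its difference of 0.50 was the highest of the member probe sets, a ratio of 1.41, and its signal crossed the threshold on the siHLX array alone. Among 7074 probe sets of like brightness, 14.9% were as far higher. MSX2, the paralog of MSX1, was dim throughout. Its probe set 205555_s_at read 3.94 after siHLX and 3.74 after siCTR. Its probe set 205556_at read 2.96 after siHLX and 3.22 after siCTR. Its probe set 210319_x_at read 3.09 after siHLX and 3.04 after siCTR. The 3 differences of 0.20, -0.26 and 0.05 averaged to nearly level. Expression in SU-DHL-1 was therefore not shown by these arrays for MSX2, with every value below the threshold, nor for VENTX, with a mean of 4.75. The other 7 genes had at least 1 probe set at or above the threshold. The threshold is a median and not a detection limit, so passing it does not show expression either. Marker genes of other cells passed it too, for example COL1A1 at 7.43 after siHLX and 7.62 after siCTR.

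Over the 15 member probe sets, 8 were higher and 7 lower after siHLX, and the median difference was 0.05. Over all 41091 probe sets paired with 1 gene, 19216 were higher and 20308 lower, with a median of 0. The member differences ran between -0.82 and 0.50 with an SD of 0.35, against an SD of 0.34 over all. Of the member probe sets, 0 were at least 1.5-fold higher, against 4.65% of all, and 1 was at least 1.5-fold lower, which is 6.67% of the 15 against 4.86% of all. These shares are near the background. Among the 9 member probe sets at or above the threshold, 4 were higher and 5 lower, the median was -0.23, and 1 was beyond 1.5-fold, downward. The background at that brightness was 3.04% higher and 2.97% lower. Among the 6 below it, none passed 1.5-fold, where 6.58% of all dim probe sets were higher and 7.15% lower. No member reached 2-fold, which 1.33% of all named probe sets did. Without HLX itself the median of the remaining 14 was 0.075, with 8 higher and 6 lower.

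**Figure D3:**
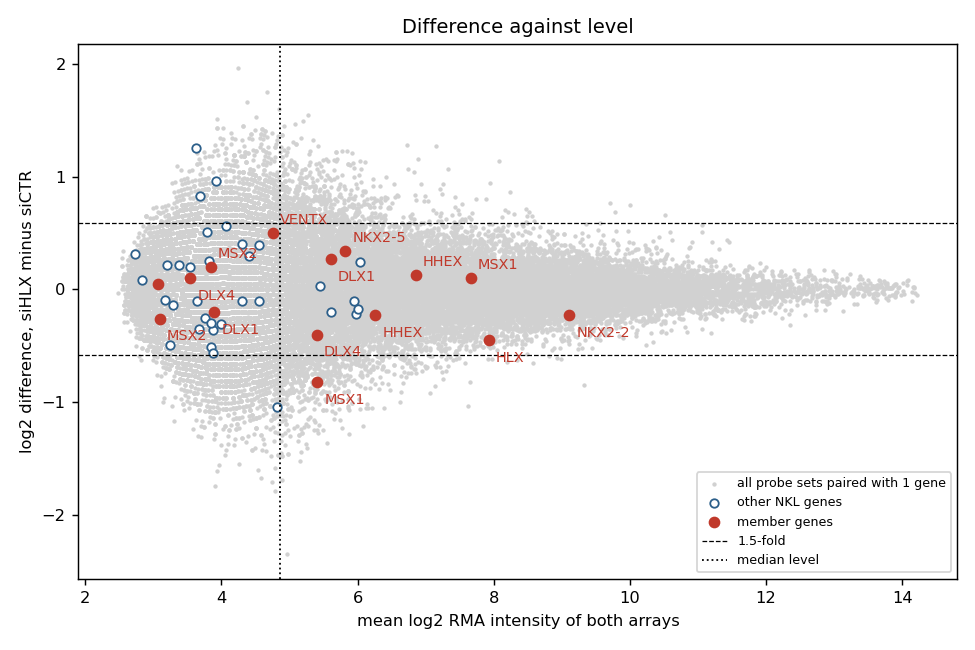
Difference on the log2 scale (siHLX minus siCTR, y axis) against the mean log2 intensity of both arrays (x axis), with filled circles for member probe sets, open circles for other NKL genes and grey points for all probe sets paired with 1 gene. The grey cloud is widest at middling brightness and narrows toward the bright end, and HLX at -0.45 and MSX1 at -0.82 lie toward its lower edge.

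The disagreement between probe sets was a feature of every member that could show it. All 5 members with several probe sets had both a higher and a lower one. Over all genes this was so for 46% of those with 2 probe sets and 68.7% of those with 3, so mixed directions were common on these arrays. The widest spread was that of MSX1, followed by DLX4 at 0.50 and DLX1 at 0.47, and 25.7% and 28.3% of genes with 2 probe sets spread as widely as these. Affymetrix gives the suffix _s_at to probes common to several transcripts and _x_at to probes that may bind other sequences. Leaving such probe sets out would change the sign of the gene-level value for HHEX to -0.23, for MSX1 to -0.82 and for MSX2 to -0.26, where the brightest probe set gave 0.13, 0.10 and 0.20.

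The other NKL genes of the list gave little signal. Of 39 genes, 27 had a probe set of their own, and 6 of their 35 probe sets reached the level threshold. These 6, one each of BARHL1, EMX1, HMX1, NKX1-1, NKX2-1 and NKX6-3, lay within 1.5-fold, with differences between -0.22 and 0.24. Of all 35, 16 were higher and 19 lower after siHLX, with a median of -0.10. Those beyond 1.5-fold were 3 higher (8.57%) and 1 lower (2.86%), and all 4 were dim. Of all named probe sets, 4.65% were that far higher and 4.86% lower. Among the 29 dim probe sets of other NKL genes, 13.8% passed 1.5-fold in either direction, against 13.7% of all dim named probe sets. These shares are near the background. The 4 are named here after their values were seen. HMX2 read 4.25 after siHLX and 3.0 after siCTR, NKX2-8 4.40 after siHLX and 3.44 after siCTR, and TLX1 4.10 after siHLX and 3.27 after siCTR. NKX6-2 read 4.30 after siHLX and 5.34 after siCTR. Only HMX2 and NKX6-2 passed 2-fold, which 1.33% of all named probe sets did.

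Sample identity and scaling touch these values as follows. All 8 ALCL marker genes, among them ALK (12.45 after siHLX, 12.47 after siCTR) and TNFRSF8 encoding CD30 (9.79 after siHLX, 9.92 after siCTR), were above the threshold on both arrays by their brightest probe set, and the differences of these probe sets ran between -0.14 and 0.35. Over all 19 probe sets of the ALCL markers they ran between -0.68 and 0.71, with 1 at least 1.5-fold higher and 1 lower, both dim. Of the T-cell receptor complex, 3 of 4 genes were above the threshold after siHLX and after siCTR. The markers of other cells above it after siHLX, against siCTR, were 2 against 3 of 4 B-cell genes, 1 against 2 of 5 myeloid, 2 against 2 of 2 erythroid, 2 against 2 of 4 epithelial and 3 against 2 of 4 stromal genes. Some of these markers differed more than the members did, for example ITGAM at 4.45 after siHLX and 5.51 after siCTR, and COL1A2 at 5.27 after siHLX and 4.25 after siCTR. Among the brightest probe sets, T-cell receptor genes differed by -0.62 to 0.25, myeloid genes by -1.06 to 0.66 and stromal genes by -0.19 to 1.02. Their part in the member differences was not tested. The spiked poly-A control transcripts, which are added to the RNA before labelling, differed on average by -0.29 between the siHLX and siCTR arrays (SD 0.18), with 23 of 24 control probe sets lower. The hybridisation controls, which are added after labelling, differed by -0.02 on average. What set the poly-A difference was not tested.

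When both arrays were set to equal poly-A controls, the median over all named probe sets moved to 0.29 and the HLX difference to -0.16. The sign then turned for 4 of the 15 member probe sets, namely NKX2-2 at 0.06, the dimmer HHEX probe set at 0.06, the dimmer DLX1 probe set at 0.09 and MSX2 probe set 205556_at at 0.03. HLX, the dimmer MSX1 probe set and the brighter DLX4 probe set kept a lower value, at -0.16, -0.53 and -0.11. In this scaling 2 member probe sets, NKX2-5 at 0.63 and VENTX at 0.79, were at least 1.5-fold higher and 0 were lower, against 15.6% higher and 1.22% lower of all named probe sets. Relative to the shifted median of 0.29, the order of the members was the same, because this scaling adds 1 amount to every probe set.

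**Figure D4:**
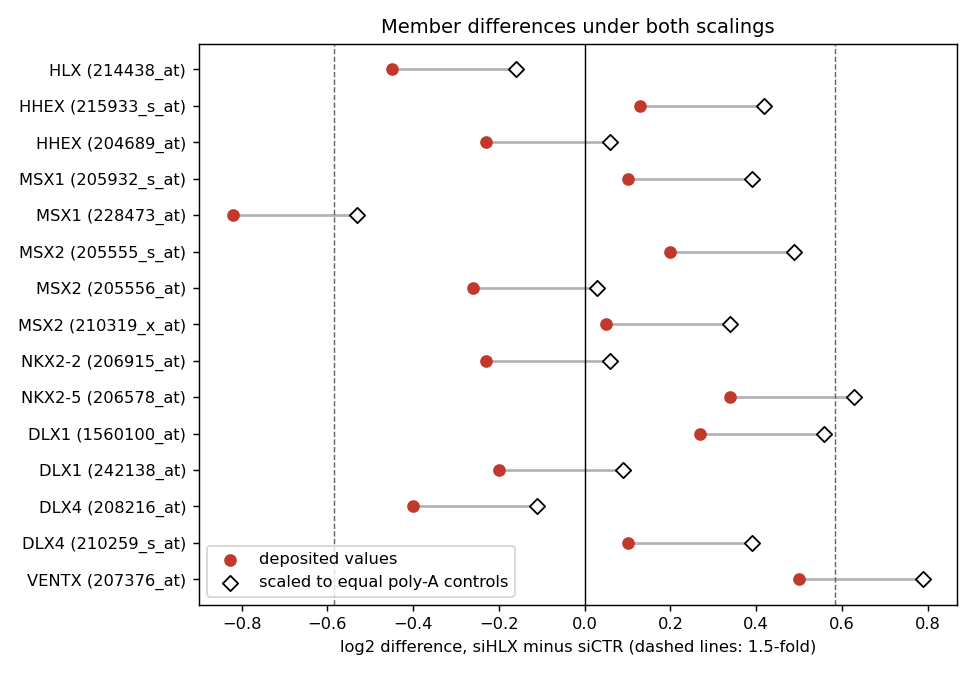
Log2 difference (siHLX minus siCTR, x axis) of the 15 member probe sets in the deposited values (filled circles) and after scaling to equal poly-A controls (diamonds), with dashed lines at 1.5-fold. Every diamond sits 0.29 to the right of its circle, and 4 probe sets cross 0.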

How the data were processed

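Gene expression was profiled on 2 HG-U133 Plus 2.0 arrays, 1 per siRNA treatment. Groups were taken from the treatment given in the labels. The authors deposited 1 log2 intensity for each probe set and array, rounded to 2 decimals. They had applied the RMA background correction and then quantile normalisation, working with the R packages limma and affy, whose versions are not given in the sources used here. Their ratios to the sample mean, which the methods describe, were not seen in the deposited values, whose median was 4.87 on both arrays. Because quantile normalisation equalises the arrays, a change shared by most transcripts would be removed.

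Of 54675 probe sets, 62 were controls. Of the rest, 41091 were paired with 1 gene, 1801 with several and 11721 with none, by the platform annotation. Of the named ones 41037 were found by Entrez ID in RefSeq GRCh38.p14, with 0 changes of symbol. Differences were siHLX minus siCTR, counted at 1.5-fold and at 2-fold, with no test. The number of arrays limits the precision. Probe sets of like brightness were those within 0.5 of the mean level. Alternatives were median and mean centring, removal of a lowess trend (fraction 0.2), repeated quantile normalisation, scaling to either kind of control, other summaries over probe sets, a filter on dim probe sets and a 2-fold limit. Scripts were tested on simulated data.

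The naming rule took the 9 members with every probe set, other NKL genes at or past 1.5-fold at or above the level threshold, of which there were 0, the genomic partners DLX2, DLX3 and NKX2-4, and the 3 genes closest to HLX by Euclidean distance. The remaining NKL genes named, the noncoding transcripts and pseudogene, the probe sets of regulators and single markers fall outside this rule and were chosen after their values were seen. The members and all gene lists were chosen with earlier results of these data known. Upstream sequences came from RefSeq. Only the 250 bases before each start were used. Python 3.11.15, pandas 2.3.3, numpy 2.4.6, statsmodels 0.14.6 and matplotlib 3.10.9 were used.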

Additional observations from a re-analysis of the deposited data

How the results depend on the processing

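The HLX difference of -0.45, the median of 0.05 over the member probe sets, and the counts beyond 1.5-fold of 1 member and 4 other NKL probe sets were recomputed under each alternative. Median and mean centring, removal of the lowess trend, repeated quantile normalisation and scaling to the hybridisation controls left all 4 close to these values and turned the sign of 0 member probe sets. Scaling to the poly-A controls gave -0.16 for HLX, 0.34 for the member median, 2 member probe sets and 10 other NKL probe sets beyond 1.5-fold. Of the 10, 9 were higher and 1 lower after siHLX. In this scaling 15.6% of all named probe sets were that far higher and 1.22% that far lower. With probe sets at or above the level threshold only, the member median was -0.23 and the count of other NKL probe sets 0. At a 2-fold limit the counts were 0 members and 2 other NKL probe sets, against 1.33% of all named probe sets. Averaging all probe sets of a gene, in place of taking the brightest, moved MSX1 to -0.36, HHEX to -0.05 and MSX2 to -0.0033, each with a turned sign, DLX1 to 0.035 and DLX4 to -0.15. No paired analysis was possible because each treatment had 1 array. With no second culture, the size of a difference cannot be told apart from variation between cultures or arrays. The SD of differences was 0.40 over named probe sets below the level threshold and 0.29 over those at or above it. Around single member probe sets it was widest at middling brightness, 0.48 around VENTX, against 0.16 around NKX2-2.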

Other observations

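Noncoding genes and a pseudogene whose symbols derive from NKL genes were read by 10 probe sets. LBX2-AS1 read 4.50 after siHLX and 5.79 after siCTR, a difference of -1.29 on the log2 scale. TLX1NB read 3.89 after siHLX and 4.69 after siCTR, opposite in direction to TLX1, and both lay below the level threshold. EMX2OS differed by 0.35 and 0.95 on its 2 probe sets, NKX2-1-AS1 by 0.63, BARX1-DT by 0.57, DLX6-AS1 by 0.10 and LBX1-AS1 by -0.42. The pseudogene VENTXP1 differed by -0.12 and -0.20, opposite in sign to VENTX. Both of its probe sets lay below the level threshold, where the differences of all named probe sets had an SD of 0.40. Beyond 1.5-fold were 2 of the 10 upward and 2 downward, where 4.65% of all named probe sets were higher and 4.86% lower. Among named probe sets below the level threshold, 6.58% were that far higher and 7.15% that far lower. The mean levels of the 10 were at most 5.145, and only those of LBX1-AS1 and LBX2-AS1 reached the level threshold.

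Among the genes the study examined as regulators of HLX or HHEX were STAT3, ALK, JAK3, PIM3, KPNB1, BCL3, BATF3, IL17F and SMAD3. Of these 9, 8 had probe sets of their own, 23 in all, of which 7 (30.4%) were higher and 16 (69.6%) lower after siHLX, with a median difference of -0.07. Over all named probe sets 46.8% were higher and 49.4% lower, with a median of 0. With both arrays set to equal poly-A controls, 20 of the 23 were higher and 3 lower, so the direction of most of them rests on the scaling. In that scaling the median over all named probe sets was 0.29, so most named probe sets were higher as well. SMAD3, a signal transducer of the TGFbeta pathway, had 4 probe sets, with differences of -0.54, -0.27, -0.07 and -0.48. Those at -0.54 and -0.27 lay below the level threshold, and those at -0.27 and -0.07 turned sign under the poly-A scaling. STAT3, the transcription factor activated by ALK signalling, read 11.55 after siHLX and 11.49 after siCTR on its brightest probe set. The remaining STAT3 probe sets differed by -0.02, 0.20 and 0.37. JAK3 had the only probe set of the list beyond 1.5-fold, at 5.82 after siHLX and 4.92 after siCTR, against 4.65% of all named probe sets that far higher, while its 3 other probe sets differed by -0.17, -0.05 and -0.16. BCL3 had no probe set of its own.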
